A study of Homo sapiens with 42 samples.

Results

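CXCL1, CXCL2, CXCL3, CXCL5, CXCL6 and CXCL8 are the ELR chemokines studied here, taken by name as 6 rows of a raw count table of 28266 gene symbols. All 6 were found and all 6 passed the filter on low counts in every fit. In the fit of IMR90 cells, CXCL2 and CXCL3 passed it through the libraries where they were high. RNA-seq of poly(A) transcripts had been performed on 42 libraries of human lung fibroblasts. IMR90 cells and IMR90 ER:RAS cells carried a doxycycline-inducible (Tet-ON) shRNA, which was either a control or 1 of 2 shRNAs against COPB2, a coatomer subunit needed for COPI vesicles. ER:RAS cells express, from a retroviral vector, an oestrogen receptor fusion of oncogenic RAS that 4-hydroxytamoxifen (4OHT) activates, so that the cells enter oncogene-induced senescence (OIS). ER:RAS cells were given 100 nM 4OHT or DMSO, with 3 libraries for each combination with an shRNA (18 libraries). IMR90 cells were given 50 µg/ml of the DNA-damaging drug bleomycin for 24 h or DMSO, with 4 libraries for each combination (24 libraries). All cells, controls included, were grown for 7 days, then received 1 µg/ml doxycycline for 72 h and were collected at day 10. Both models therefore differ in cell line, vector and inducer at once, and a bulk library cannot tell fewer producing cells from less RNA per cell.

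ELR chemokines are secreted proteins named for the glutamate-leucine-arginine motif ahead of their CXC cysteines, and they draw neutrophils to tissue through the receptors CXCR1 and CXCR2. CXCL8 (interleukin-8) and CXCL6 engage both receptors, whereas CXCL1, CXCL2, CXCL3 and CXCL5 act mainly on CXCR2. Their genes are switched on by interleukin-1 and NF-kB, and they are well-known parts of the senescence-associated secretory phenotype (SASP), through which senescent fibroblasts act on their neighbours and, by way of CXCR2, on themselves. Many of their transcripts carry AU-rich elements, by which they are rapidly degraded.

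The 6 genes lie within 359 kb of chromosome 4 (RefSeq annotation, GRCh38.p14). In ascending position the order was CXCL8 (start 73740569, end 73743716, plus strand), CXCL6 (73836678 to 73838760, plus), CXCL1 (73869393 to 73871308, plus), CXCL5 (73995642 to 73998677, minus), CXCL3 (74036589 to 74038689, minus) and CXCL2 (74097040 to 74099195, minus). The platelet chemokine genes PF4V1, PF4 and PPBP lie between the first and the last of them. The 140 bases just upstream of each annotated start are shown because the members moved together, with capitals for matches to the NF-kB-like motif GGNNTTTCC, the AP-1 motif TGANTCA or the TATA box letters TATAAA. Each is given 5′ to 3′ on the gene's own strand, from the RefSeq promoter window of that build, at chr4:73869253-73869392 (CXCL1), chr4:74099196-74099335 (CXCL2), chr4:74038690-74038829 (CXCL3), chr4:73998678-73998817 (CXCL5), chr4:73836538-73836677 (CXCL6) and chr4:73740429-73740568 (CXCL8).
CXCL1: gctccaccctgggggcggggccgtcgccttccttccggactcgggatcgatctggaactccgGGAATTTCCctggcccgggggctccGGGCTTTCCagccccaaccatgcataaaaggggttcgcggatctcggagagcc
CXCL2: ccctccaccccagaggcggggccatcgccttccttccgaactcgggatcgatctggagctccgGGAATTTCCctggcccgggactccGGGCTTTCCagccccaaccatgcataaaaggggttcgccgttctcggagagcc
CXCL3: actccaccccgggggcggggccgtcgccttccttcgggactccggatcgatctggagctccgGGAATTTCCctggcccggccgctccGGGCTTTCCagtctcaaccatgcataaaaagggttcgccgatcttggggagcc
CXCL5: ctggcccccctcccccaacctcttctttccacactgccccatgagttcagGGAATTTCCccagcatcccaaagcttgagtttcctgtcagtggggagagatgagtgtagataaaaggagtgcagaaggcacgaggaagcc
CXCL6: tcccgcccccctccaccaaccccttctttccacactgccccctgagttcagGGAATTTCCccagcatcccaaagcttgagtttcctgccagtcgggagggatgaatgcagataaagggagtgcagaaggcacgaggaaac
CXCL8: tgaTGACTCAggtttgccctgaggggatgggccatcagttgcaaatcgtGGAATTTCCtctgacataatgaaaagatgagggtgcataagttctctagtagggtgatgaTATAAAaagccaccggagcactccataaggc
All 6 members held GGAATTTCC on the strand of the gene, with its first base 77 to 91 bases upstream of the start, and CXCL1, CXCL2 and CXCL3 held a further match, GGGCTTTCC, 53 bases upstream. Both strands were searched in windows of 300 bases, 250 before and 50 after the start. The NF-kB-like motif was present in 6 of 6 members and in 6.26% of all 35116 RefSeq windows of this length. TGANTCA was present in CXCL8 alone (7.71% of all windows), and so was TATAAA (11.5%). The C/EBP-like motif TTGCNNAA was present in CXCL2 alone (10.5%), on the opposite strand 188 bases upstream of the start and so outside the stretch shown. No match was overlapped by another. These matches describe letters in a window, not bound sites, and only exact spellings were counted. The CXCL8 stretch holds ttgcaaat, which differs from TTGCNNAA in its last base alone. The stretches of CXCL1, CXCL2 and CXCL3 hold cataaa and those of CXCL5 and CXCL6 hold gataaa, which differ from TATAAA in their first base alone. Over the 300 bases, CXCL1 and CXCL3 were 84.7% identical and CXCL5 and CXCL6 were 83.7% identical, whereas CXCL8 shared 48% to 50.3% of positions with the others.

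Sequence similarity extends to the transcripts of CXCL1, CXCL2 and CXCL3. With reads of 75 bases, 0.273% of the positions in CXCL1, 2.50% in CXCL2 and 2.30% in CXCL3 matched another member exactly, and allowing 1 mismatch these shares were 8.36%, 13.9% and 5.29%. None of the positions in CXCL5, CXCL6 or CXCL8 did so. How reads with several matches were counted is not given in the sources used here, so the split among CXCL1, CXCL2 and CXCL3 is less certain than the levels of the other members.

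Library depth ran from 13148194 to 23597310 counts, at which the floor of 3 counts corresponded to 0.110 to 0.271 CPM, the count scaled to library size. The target of the shRNAs, COPB2, ranged over 267 to 620 CPM in 14 control libraries and over 33.9 to 122 CPM in 28 knockdown libraries, without overlap. The 8 fibroblast markers summed to 7903 to 27481 CPM. The 8 leukocyte markers summed to 12.8 to 121 CPM, of which CD68 gave nearly everything, and the leukocyte-defining PTPRC had 0 to 36 counts. The 6 epithelial markers summed to 0.118 to 2.09 CPM and the 5 endothelial markers to 7.13 to 35.9 CPM. Leukocyte markers were at 82.0 to 121 CPM in OIS and 17.6 to 45.2 CPM in ER:RAS cells with DMSO, and at 55.7 to 106 CPM with bleomycin and 12.8 to 29.9 CPM in IMR90 cells with DMSO. Fibroblast markers summed to 14371 to 24427 CPM in OIS and 15789 to 26002 CPM with DMSO. In OIS 6 of 8 were called lower and VIM higher, beside 20.2% and 15.5% of all genes. Their sums were 7903 to 20872 CPM with bleomycin and 19026 to 27481 CPM with DMSO. With bleomycin 6 of 8 were called lower, beside 15.8% of genes (5 without bleomycin replicate 4, beside 14.8%). Endothelial markers summed to 11.1 to 15.8 CPM in OIS and 15.8 to 25.3 CPM with DMSO. Of the 4 tested in OIS, 3 were called higher and TEK lower, beside 15.5% and 20.2% of all genes. Among the higher ones were PECAM1 (28 to 46 counts after 0 to 3) and CDH5 (19 to 49 counts after 0). With bleomycin PECAM1 was again higher (7 to 23 counts after 0 to 2). PECAM1 and CDH5 passed the filter on low counts where they were high, so the share called depends on it. The part of these markers in the results was not tested.

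Bleomycin replicate 4 stood apart with each of the 3 shRNAs. In these 3 libraries the members were 27.9 to 47.3 times (control shRNA), 114 to 437 times (COPB2 shRNA 1) and 19.97 to 55.4 times (COPB2 shRNA 2) the median of the other 3 bleomycin libraries of their group. With DMSO, replicate 4 was at 0.498 to 4.67 times the median of the others, and the highest of these values was CXCL2 with COPB2 shRNA 1, at 15 counts. The total counts of the 3 libraries (17522375 to 19409645) were near those of the other bleomycin libraries (15580424 to 18761134). COPB2 with the control shRNA was at 480 CPM in replicate 4 and 381 to 548 CPM in the others. The 8 leukocyte markers summed to 61.0 to 106 CPM in the 3 libraries and 55.7 to 99.5 CPM in the other 9, and the 8 fibroblast markers to 7903 to 14261 CPM and 11344 to 20872 CPM. The 5 endothelial markers summed to 18.97 to 33.9 CPM and 7.13 to 19.8 CPM, and of all 27 markers only TEK was higher in each of the 3 libraries than in all of the other 9. Their part in the levels of these libraries was not tested. The bleomycin tests of the members are therefore given with and without replicate 4.

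**Figure D1:**
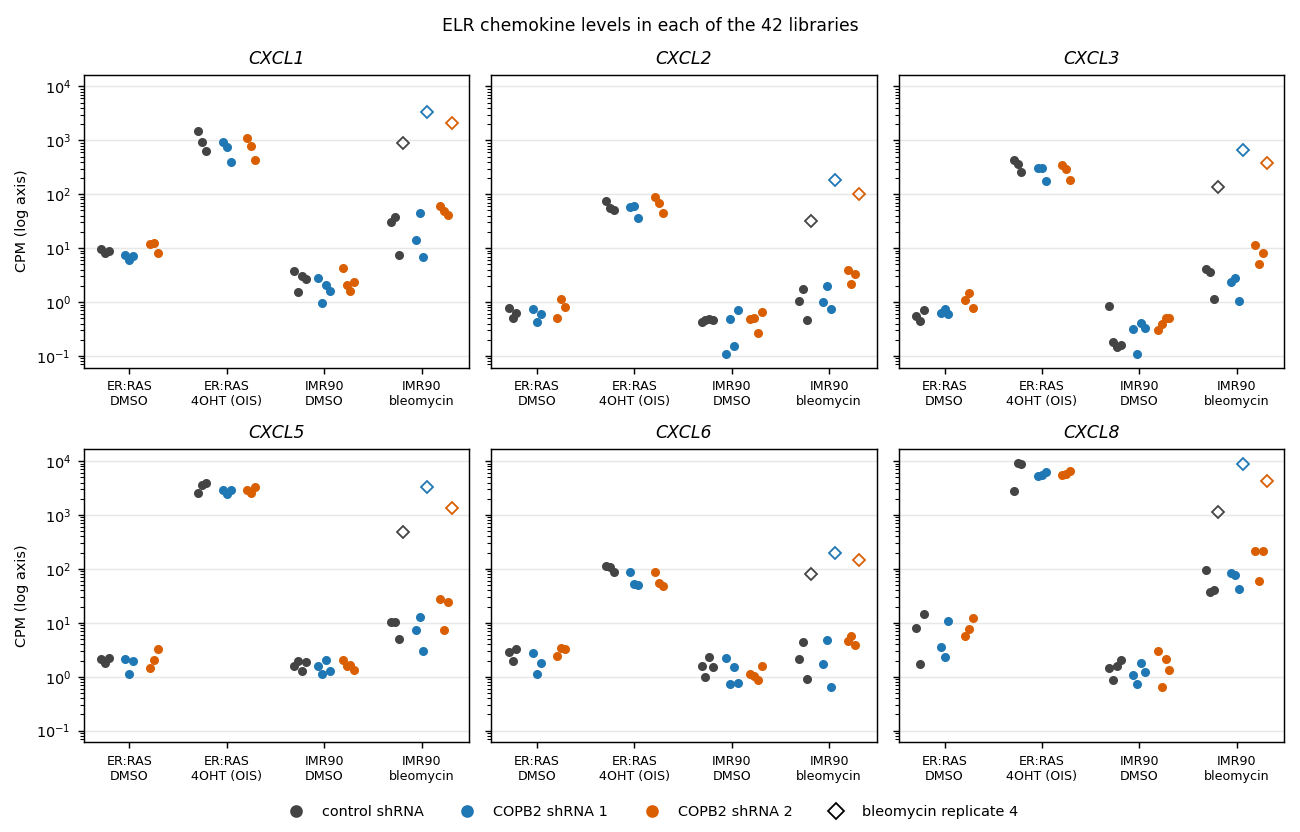
Level of each ELR chemokine in every library, in CPM on a log axis, by cell line and treatment. Each point is 1 library, colours give the shRNA, and open diamonds are bleomycin replicate 4. The 9 OIS libraries lie above the 9 ER:RAS libraries with DMSO for all 6 genes, and the diamonds lie far above the other bleomycin libraries.

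In proliferating cells the members were low. Compared per kilobase of transcript (CPM/kb), CXCL1 led in ER:RAS cells with DMSO at a median of 6.88 over 9 libraries, followed by CXCL8 at 4.67, CXCL6 at 1.77, CXCL5 at 0.849, CXCL3 at 0.671 and CXCL2 at 0.561. In IMR90 cells with DMSO the medians over 12 libraries were 1.91 for CXCL1, 0.857 for CXCL6, 0.845 for CXCL8, 0.637 for CXCL5, 0.425 for CXCL2 and 0.302 for CXCL3. Neighbours in both orders overlapped in range. Within libraries, CXCL1 lay above CXCL6 in 12 of 12 IMR90 libraries and CXCL6 above CXCL5 in 9 of 9 ER:RAS libraries, and no other neighbours kept their order in every library. CXCL2 had 2 to 15 counts and CXCL3 had 3 to 14 counts in the IMR90 DMSO libraries, so folds of these genes rest on few reads at baseline. Both passed the filter on low counts in the IMR90 fit through the bleomycin libraries. The share of members called with bleomycin depends on it.

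Between the lines, the DMSO libraries with the control shRNA gave log2 differences of 0.31 to 2.48 (ER:RAS minus IMR90), but 0 of 6 members were called in a fit of all 42 libraries, in which 0.346% of all genes were. The quasi-likelihood test of edgeR gave 0 members an unadjusted p under 0.05, and DESeq2 called 0. The log2 difference was largest for CXCL8, whose levels were 7.997, 1.71 and 14.9 CPM in ER:RAS cells and 1.44, 0.871, 1.61 and 2.00 CPM in IMR90 cells, which overlapped (adjusted p = 0.461). CXCL1 was at 9.47, 8.04 and 8.85 CPM against 3.83, 1.56, 3.08 and 2.63 CPM and did not overlap, as held for 12.7% of all genes.

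OIS raised every ELR chemokine, from 35.2-fold for CXCL6 to 1541-fold for CXCL5. CXCL5, an epithelial-derived neutrophil attractant, was at 2.14, 1.77 and 2.26 CPM with DMSO and the control shRNA and at 2597, 3641 and 3994 CPM with 4OHT. The log2 fold change was 10.59 ± 0.44 (SE, adjusted p = 2.68e-10, edgeR quasi-likelihood test adjusted over all genes tested, as throughout). CXCL8, a classical neutrophil attractant, was at 7.997, 1.71 and 14.9 CPM and rose to 2759, 9408 and 8823 CPM, a log2 fold change of 9.61 ± 0.96 (adjusted p = 1.67e-06). In CPM the first OIS library had the lowest CXCL8 and CXCL5 of the 3 and the highest CXCL1, CXCL2, CXCL3 and CXCL6. Its scaling factor (TMM) was 0.611, beside 0.831 and 0.907, at total counts of 18124337, 18204238 and 17409212. The counts of CXCL2 were 848, 848 and 807, and those of CXCL3 were 4830, 5562 and 4086. CXCL6 had 1230 counts in the first OIS library, the lowest of the 3 (1230 to 1646). The ranks of CXCL2, CXCL3 and CXCL6 thus rest on this scaling.

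CXCL1, first described as a growth factor of melanoma cells, was at 9.47, 8.04 and 8.85 CPM with DMSO and at 1492, 942 and 624 CPM with 4OHT, a log2 fold change of 6.74 ± 0.44 (adjusted p = 1.78e-08). Its close relatives CXCL2 and CXCL3 are macrophage inflammatory chemokines. CXCL3 was at 0.560, 0.443 and 0.722 CPM and rose to 436, 368 and 259 CPM (9.12 ± 0.38, adjusted p = 2.68e-10). CXCL2 was at 0.764, 0.507 and 0.625 CPM and rose to 76.5, 56.0 and 51.1 CPM (6.46 ± 0.38, adjusted p = 6.63e-09). Although both began at a like level, CXCL3 thus ended several times above CXCL2 in each library. CXCL6, a granulocyte attractant and the closest relative of CXCL5, was at 2.85, 1.96 and 3.22 CPM and rose to 111, 109 and 87.9 CPM (5.14 ± 0.39, adjusted p = 8.12e-08). For all 6 genes every OIS library lay above every DMSO library, which 17.9% of all genes tested also did.

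All 6 members were called higher in OIS with the control shRNA, where 15.5% of all genes tested were. The same held with COPB2 shRNA 1 (6 of 6, beside 15.4% of genes) and with COPB2 shRNA 2 (6 of 6, beside 14.9%), which rest on separate libraries. The median log2 fold change of the members was 7.93, 7.56 and 7.05 with the control shRNA, shRNA 1 and shRNA 2, and that of all genes was -0.08, -0.12 and -0.09. The order of the folds was close to alike in the 3 sets. With shRNA 1 the log2 fold changes were 10.54 for CXCL5, 9.88 for CXCL8, 8.54 for CXCL3, 6.58 for CXCL1, 6.35 for CXCL2 and 4.99 for CXCL6. With shRNA 2 they were 10.25 for CXCL5, 9.36 for CXCL8, 7.87 for CXCL3, 6.23 for CXCL2, 6.10 for CXCL1 and 4.31 for CXCL6. CXCL1 and CXCL2 changed places between sets, within their standard errors.

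**Figure D2:**
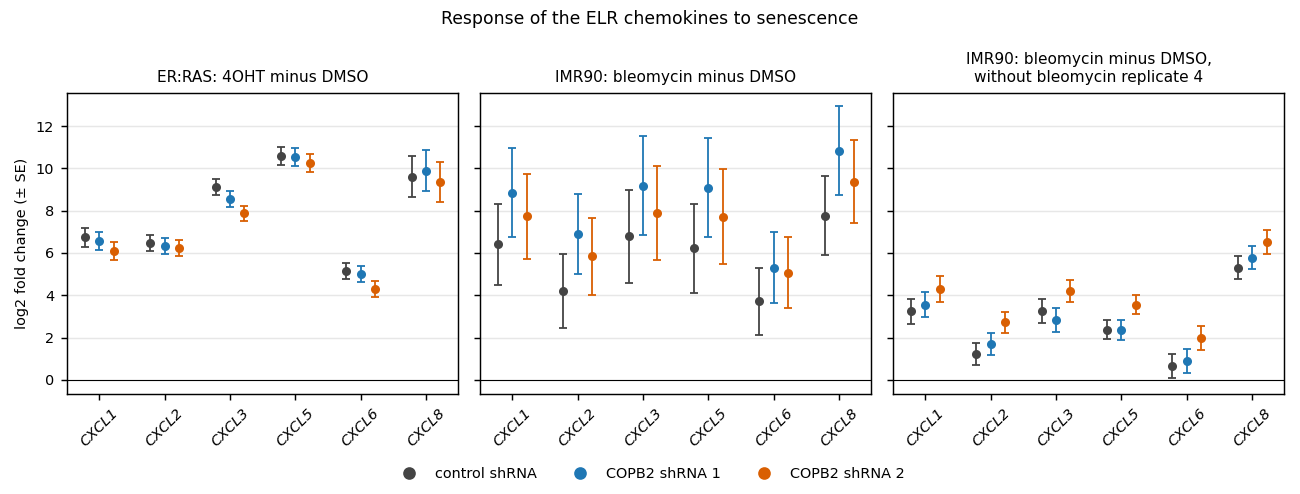
Log2 fold change of each ELR chemokine on senescence (points) with its standard error (bars), for 4OHT in ER:RAS cells, for bleomycin in IMR90 cells, and for bleomycin without replicate 4, by shRNA. In OIS the points run from 4.31 to 10.59, and without replicate 4 the bleomycin points run from 0.64 to 6.51 with far shorter bars than with it.

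With bleomycin and the control shRNA, CXCL8, CXCL1, CXCL3 and CXCL5 were called higher, and CXCL2 and CXCL6 were not. CXCL8 showed the clearest response, at 1.44, 0.871, 1.61 and 2.00 CPM with DMSO and 96.6, 37.0, 41.1 and 1145 CPM with bleomycin (control shRNA, replicates 1 to 4). Its log2 fold change was 7.77 ± 1.87 (adjusted p = 0.00290), or 5.31 ± 0.54 without replicate 4 (adjusted p = 7.60e-07). CXCL1 was at 3.83, 1.56, 3.08 and 2.63 CPM and then at 30.4, 38.6, 7.36 and 882 CPM, a log2 fold change of 6.41 ± 1.91 (adjusted p = 0.0133), or 3.24 ± 0.59 without replicate 4 (adjusted p = 0.000325). For both genes every bleomycin library lay above every DMSO library.

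CXCL3 was at 0.837, 0.183, 0.147 and 0.158 CPM with DMSO and at 4.12, 3.67, 1.15 and 136 CPM with bleomycin, a log2 fold change of 6.79 ± 2.20 (adjusted p = 0.0219), or 3.25 ± 0.56 without replicate 4 (adjusted p = 0.000213). CXCL5 was at 1.56, 1.97, 1.27 and 1.84 CPM and then at 10.3, 10.4, 5.00 and 489 CPM (6.23 ± 2.10, adjusted p = 0.0272, and 2.38 ± 0.46, adjusted p = 0.000548, without replicate 4). These 2 genes did not overlap between groups either, but replicate 3 was the lowest bleomycin library for both. CXCL2 and CXCL6 overlapped between groups and were not called. CXCL2 was at 0.419, 0.459, 0.489 and 0.474 CPM with DMSO and 1.05, 1.72, 0.460 and 31.5 CPM with bleomycin (4.18 ± 1.75, adjusted p = 0.0747, and 1.23 ± 0.52, adjusted p = 0.0804, without replicate 4). CXCL6 was at 1.56, 1.01, 2.30 and 1.53 CPM and 2.11, 4.36, 0.920 and 79.3 CPM, and its log2 fold change fell from 3.73 ± 1.58 (adjusted p = 0.0789) to 0.64 ± 0.56 (adjusted p = 0.424) without replicate 4.

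Thus 4 of 6 members were called higher with the control shRNA (15.4% of all genes tested), and 4 did not overlap between groups with every bleomycin library higher (14.1% of genes). With COPB2 shRNA 1, 6 of 6 were called (17.4% of genes), and with COPB2 shRNA 2, 6 of 6 (21.7%). CXCL3, and with the COPB2 shRNAs CXCL2, are among those called and passed the filter on low counts where they were high. Without replicate 4 the counts were 4 of 6 with the control shRNA (16.2% of genes), 5 of 6 with shRNA 1 (16%) and 6 of 6 with shRNA 2 (22.8%), and the member not called with shRNA 1 was CXCL6 (0.89, adjusted p = 0.248). The median log2 fold change of the members was 6.32, 8.96 and 7.73 in the 3 sets with replicate 4 and 2.81, 2.60 and 3.89 without it, while that of all genes stayed between -0.01 and 0.02. CXCL8 had the largest log2 fold change in every set, 5.77 with shRNA 1 and 6.51 with shRNA 2 without replicate 4, and CXCL6 the smallest, 0.89 and 1.98. Over the 3 sets the standard errors were 1.58 to 2.35 with replicate 4 and 0.46 to 0.61 without it. With the control shRNA the 4 called members had smaller adjusted p-values without replicate 4, and CXCL2 and CXCL6 had larger ones.

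The levels behind these folds in the COPB2 knockdown libraries had the same form. With shRNA 1 and bleomycin, CXCL8 was at 83.7, 75.5, 41.5 and 8645 CPM, CXCL1 at 14.1, 44.4, 6.90 and 3365 CPM, and CXCL5 at 7.44, 13.01, 2.97 and 3249 CPM. With shRNA 2, CXCL8 was at 214, 60.5, 219 and 4267 CPM, CXCL1 at 61.6, 49.2, 40.6 and 2058 CPM, and CXCL5 at 27.5, 7.36, 24.2 and 1339 CPM. Replicate 4 was the highest library in both sets, and its CXCL1, CXCL2, CXCL3 and CXCL6 with shRNA 1 exceeded those of every OIS library. The 6 members together took 1.79% of all counts in that library, compared with 0.457% to 1.26% in the OIS libraries.

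OIS and bleomycin were then compared in a fit of both lines. With the control shRNA, OIS libraries were higher by 2.09 to 4.73 on the log2 scale, and 2 of 6 members were called, CXCL5 (4.73, adjusted p = 0.0129) and CXCL8 (4.41, adjusted p = 0.00765), where 48.2% of all genes were called in either direction. Without bleomycin replicate 4 all 6 were called (43.4% of genes), with log2 differences of 8.63 for CXCL5, 6.92 for CXCL8, 6.88 for CXCL3, 5.81 for CXCL2, 5.36 for CXCL6 and 5.30 for CXCL1. The same comparison made on the responses, each line against its own DMSO libraries, called 0 of 6 members (20.3% of genes), with differences of 0.42 for CXCL1 to 4.42 for CXCL5 (adjusted p = 0.178). At an unadjusted p under 0.05 edgeR had 0 members and DESeq2 called 0. Without replicate 4 the responses differed for 6 of 6 (19.5% of genes), by 8.34 for CXCL5, 6.02 for CXCL3, 5.37 for CXCL2, 4.63 for CXCL6, 4.46 for CXCL8 and 3.65 for CXCL1, with adjusted p of at most 0.000620. No sign changed when replicate 4 was left out, but the differences in level grew to between 5.30 and 8.63 on the log2 scale.

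The balance among members changed with senescence. Per kilobase, CXCL1 made up a median of 50.7% of the 6 transcripts in ER:RAS cells with DMSO (35.5% to 63.6%) and 11.98% in OIS (5.96% to 27.8%). CXCL8 took 22.7% (9.67% to 43.4%) and then 63.0% (36.8% to 68.6%), overlapping between the states. CXCL5 rose from 5.18% (3.47% to 6.98%) to 20.8% (17.6% to 23.4%), and CXCL6 went from 10.6% (7.51% to 14.4%) to 0.725% (0.526% to 1.58%), both without overlap. In OIS the order of the medians was CXCL8 (3495 CPM/kb), CXCL5 (1191), CXCL1 (674), CXCL3 (282), CXCL6 (56.8) and CXCL2 (52.4). CXCL8 did not overlap CXCL5 in range and CXCL3 did not overlap CXCL6, whereas the other neighbours overlapped. Within libraries CXCL1 lay above CXCL3 in 9 of 9, CXCL5 above CXCL1 in 8 of 9 and CXCL6 above CXCL2 in 5 of 9.

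With bleomycin the order was CXCL8 (54.9 CPM/kb), CXCL1 (36.2), CXCL5 (4.80), CXCL3 (4.24), CXCL6 (2.88) and CXCL2 (1.85) over 12 libraries, and it was the same without replicate 4 (46.0, 32.9, 4.24, 3.41, 2.52 and 1.54). All neighbours in this order overlapped in range, but CXCL1 lay above CXCL5 in 12 of 12 libraries. CXCL8 took a median of 56.2% of the 6 transcripts (33.4% to 73.4%), compared with 16.1% in IMR90 cells with DMSO (9.24% to 27.9%), without overlap. CXCL1 took 27.4% (17.1% to 48.7%) after 37.9% with DMSO (29.7% to 47.0%). CXCL5 took 5.44% (3.28% to 12.9%) after 12.97% (8.42% to 20.7%), and its share thus did not rise as it had in OIS. Without replicate 4 the median shares were 61.8% for CXCL8 (33.4% to 73.4%), 24.9% for CXCL1 (17.1% to 48.7%) and 5.19% for CXCL5 (3.28% to 6.32%). As shares add up to a whole, a rise of 1 member lowers the others.

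A ratio of members within a library does not depend on its scaling. The log2 ratio of CXCL5 to CXCL1 counts was 0.80 to 2.93 in the 9 OIS libraries and -2.74 to -0.05 in the 12 bleomycin libraries, replicate 4 included, and these ranges did not overlap. In DMSO libraries it was -2.99 to -1.32 in ER:RAS cells and -1.28 to 0.33 in IMR90 cells. With the control shRNA the ratio was 1.81 ± 0.95 (SD, n = 3) in OIS and -1.21 ± 0.62 (SD, n = 4) with bleomycin, a difference of 3.02. The difference was 3.04 with shRNA 1 and 3.33 with shRNA 2, and without replicate 4 the 3 differences were 3.14, 3.36 and 3.56. Each set gave an exact permutation p of 0.0286 (two-sided), the smallest possible with 3 against 4 libraries, and 0.0714 after adjustment over the 15 ratios tested. CXCL3 behaved in the same way, with log2 ratios to CXCL1 of -1.77 to -1.16 in OIS and -3.97 to -2.33 with bleomycin, differences of 1.43, 1.51 and 1.17 and the same p-values. The ratios of CXCL2, CXCL6 and CXCL8 to CXCL1 overlapped between OIS and bleomycin. These 2 ratios were singled out after the levels were known, and they too compare cell lines as well as inducers.

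**Figure D3:**
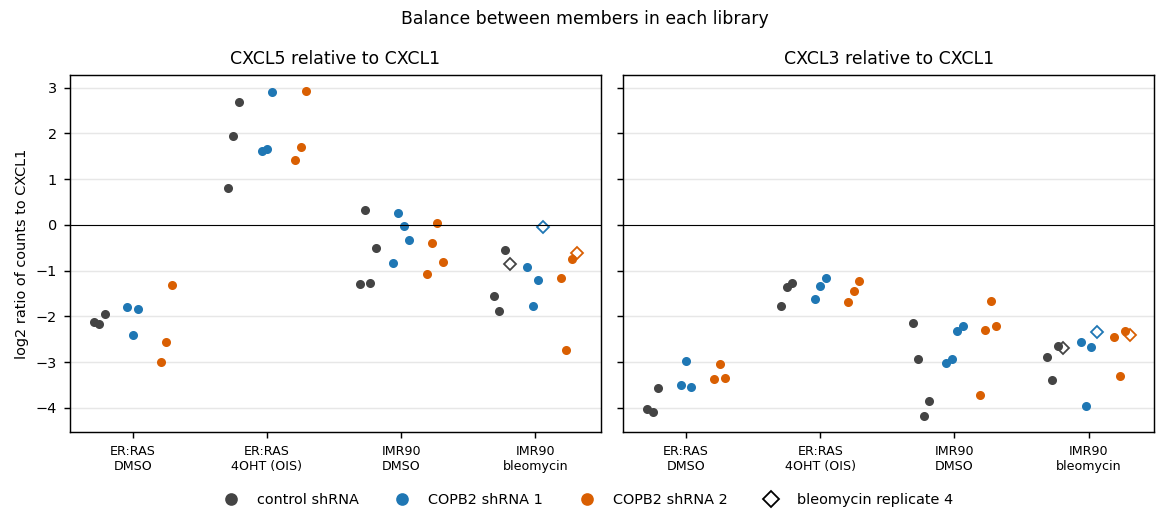
Log2 ratio of CXCL5 and of CXCL3 counts to CXCL1 counts in each library, by cell line and treatment. Each point is 1 library, colours give the shRNA, and open diamonds are bleomycin replicate 4. For CXCL5 the OIS libraries sit at 0.80 to 2.93 and all bleomycin libraries, diamonds included, at -0.05 or below.

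Across all 42 libraries the members moved together, but within OIS they did not all do so. Over all 42 libraries the Spearman correlation of member pairs was 0.814 to 0.951 over 15 pairs, a description that holds the contrast of senescent and DMSO libraries in it. Over the 12 bleomycin libraries it was 0.657 to 0.972, and over the 9 without replicate 4 it was 0.183 to 0.933. Over the 9 OIS libraries it was -0.683 to 0.933, and below 0 for 7 of 15 pairs, among them CXCL8 with CXCL2 (-0.683), CXCL1 (-0.650), CXCL3 (-0.450) and CXCL6 (-0.267). These 9 libraries are 3 replicate numbers with each of 3 shRNAs, and CXCL1 fell from replicate 1 to replicate 3 with every shRNA. They are thus not 9 independent cases. The genes outside the set with the highest mean correlation to the members over all 42 libraries were TFPI2 (0.922), LIF (0.909), ENC1 (0.908), GNG11 (0.908) and ETS2 (0.907). LIF encodes a cytokine of the interleukin-6 family and TFPI2 a secreted protease inhibitor. Within the 12 bleomycin libraries they were IL6 (0.937), HYOU1 (0.924), DLGAP1-AS1 (0.921), TCF21 (0.915) and POU2F2 (0.900). IL6, a core SASP cytokine, ranged from 7.36 to 967 CPM in those libraries and from 7.36 to 44.04 CPM without replicate 4. Over these 9 libraries the highest mean correlations were those of IL6 (0.850), TCF21 (0.847), RIMBP3 (0.833), HYOU1 (0.819) and SYVN1 (0.814).

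No member was called after COPB2 knockdown in OIS. With COPB2 shRNA 1, 0 of 6 members were called (0.140% of all genes tested) and the log2 fold changes were -0.69 to -0.25. With COPB2 shRNA 2, 0 of 6 were called (0.224%) and they were -0.70 to 0.12. Both comparisons share the control libraries. In each, edgeR gave 1 member an unadjusted p under 0.05, which was CXCL6 both times (-0.69 and -0.70), and DESeq2 called 0. CXCL6 was at 111, 109 and 87.9 CPM with the control shRNA, 89.2, 53.3 and 50.1 CPM with shRNA 1 and 87.2, 55.3 and 48.8 CPM with shRNA 2. Replicate 1 with shRNA 1 overlapped the controls, and no library with shRNA 2 did, as held for 7.83% of all genes in either direction. CXCL8 was at 2759, 9408 and 8823 CPM with the control shRNA, and it was at 5303, 5634 and 6264 CPM with shRNA 1 and at 5567, 5739 and 6671 CPM with shRNA 2. The knockdown libraries thus lay between those of the control. CXCL1 was at 945, 765 and 389.5 CPM with shRNA 1 and at 1099.9, 792 and 434 CPM with shRNA 2, and CXCL5 was at 2901, 2405 and 2899.9 CPM and at 2943, 2566 and 3308 CPM. Both genes overlapped the control libraries. COPB2 itself fell by 2.28 and 2.11 on the log2 scale in the same comparisons.

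In ER:RAS cells with DMSO 0 of 6 members were called with either shRNA (0.00699% of genes for each, which was COPB2 itself). Members with an unadjusted p under 0.05 in edgeR numbered 0 with shRNA 1 and 1 with shRNA 2, which was CXCL3 (log2 fold change 0.86), and DESeq2 called 0. CXCL3 was at 0.560, 0.443 and 0.722 CPM with the control shRNA and at 1.10, 1.46 and 0.769 CPM with shRNA 2, without overlap (3.11% of all genes in either direction), from 24 counts at most. With shRNA 1, CXCL1 did not overlap either, at 7.33, 6.09 and 7.11 CPM after 9.47, 8.04 and 8.85 CPM with the control shRNA. The share of all genes without overlap was not computed for shRNA 1. The change of the knockdown effect between OIS and DMSO was called for 0 of 6 members with both shRNAs (0% of genes for each). Its largest value was -1.25 for CXCL3 with shRNA 2, the only member under 0.05 before adjustment in edgeR, and DESeq2 called 0.

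In bleomycin-treated cells 0 of 6 members were called with shRNA 1 (0.00676% of all genes) and 0 of 6 with shRNA 2 (0.0744%), and 0 had an unadjusted p under 0.05 in edgeR. The log2 fold changes were 1.27 to 2.77 with shRNA 1 (SE 1.38 to 1.72) and 0.90 to 1.88 with shRNA 2. Without replicate 4 those with shRNA 1 fell to between -0.55 and 0.18, with 0 members called (0.00674% of genes) and 0 under 0.05 before adjustment. Those with shRNA 2 were 0.90 to 1.54, with 0 called (0.0337%) and 4 under 0.05 before adjustment, CXCL2 (1.54), CXCL8 (1.49), CXCL3 (1.43) and CXCL5 (1.19). The smallest adjusted p among them was 0.873, and DESeq2 without replicate 4 called 0 with either shRNA. COPB2 fell by 2.23 and 2.24 on the log2 scale.

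CXCL2 without replicate 4 was at 1.05, 1.72 and 0.460 CPM with the control shRNA and at 3.93, 2.17 and 3.38 CPM with shRNA 2, and CXCL3 was at 4.12, 3.67 and 1.15 CPM and at 11.3, 4.99 and 8.07 CPM. CXCL1 was at 30.4, 38.6 and 7.36 CPM and at 61.6, 49.2 and 40.6 CPM. These 3 genes did not overlap between the groups, as held for 4.91% of all genes in either direction, and the other 3 did. With shRNA 1 the levels of CXCL2 were 1.01, 1.95 and 0.743 CPM and those of CXCL3 were 2.37, 2.82 and 1.06 CPM, which overlapped the control for both.

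Set side by side by replicate number, a comparison added after the levels were seen, shRNA 2 was above the control in bleomycin-treated cells in 4 of 4 pairs of libraries for 5 members and in 3 of 4 pairs for CXCL5, with the exception of replicate 2 (-0.50). Of all genes, 11% were above the control in 4 of 4 pairs, and the members share these libraries. Its CXCL8 log2 ratios were 1.15, 0.71, 2.42 and 1.90, and its CXCL2 ratios were 1.90, 0.33, 2.88 and 1.67. With shRNA 1 the CXCL8 ratios were -0.21, 1.03, 0.01 and 2.92, those of CXCL1 were -1.11, 0.20, -0.09 and 1.93, and those of CXCL5 were -0.47, 0.33, -0.75 and 2.73. For shRNA 1 the high values thus belonged to replicate 4, where they were 1.32 to 2.92 over the members. In OIS the ratios of CXCL1 were below 0 in all 3 pairs with shRNA 1 (-0.66, -0.30 and -0.68) and with shRNA 2 (-0.44, -0.25 and -0.52), and so were those of CXCL3 and CXCL6, as in 12.1% and 13.2% of all genes. With DMSO the CXCL1 ratios with shRNA 1 were below 0 as well, in all 3 ER:RAS pairs and all 4 IMR90 pairs. Those of CXCL2, CXCL5 and CXCL6 were also below 0 in all 3 ER:RAS pairs, and had both signs in IMR90 cells. The share of all genes was not computed for these DMSO pairs. With shRNA 2 and DMSO the CXCL1 ratios had both signs in each line.

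**Figure D4:**
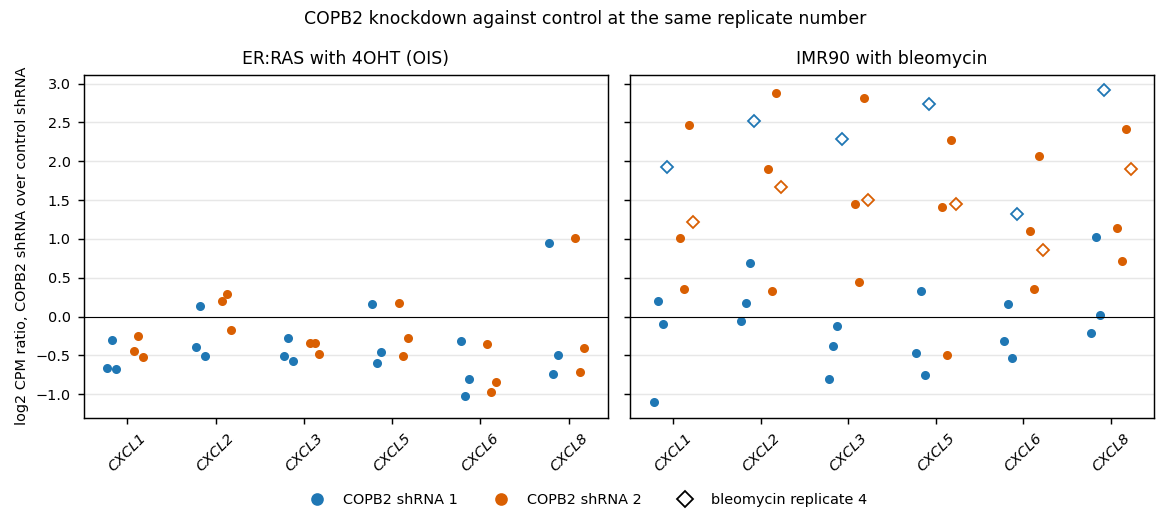
Log2 ratio of CPM with a COPB2 shRNA to CPM with the control shRNA of the same replicate number, for each ELR chemokine, in OIS and in bleomycin-treated cells. Each point is 1 pair of libraries, and open diamonds are bleomycin replicate 4. In OIS all points but those of CXCL8 in replicate 1 lie between -1.03 and 0.29, and in bleomycin-treated cells the diamonds of shRNA 1 lie at 1.32 to 2.92, above its other points.

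In IMR90 cells with DMSO 0 of 6 members were called with either shRNA (0.00676% of genes for each), with 0 under 0.05 before adjustment in edgeR. DESeq2 gave the members no adjusted p in any comparison of the 24 IMR90 libraries. The change of the knockdown effect between bleomycin and DMSO was called for 0 of 6 with both shRNAs, also without replicate 4 (0% of genes in each of the 4 comparisons), and 0 members were under 0.05 before adjustment. DESeq2 without replicate 4 called 0 as well. With replicate 4 the standard errors of the changes were 2.12 to 3.24 on the log2 scale.

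The receptors of the ELR chemokines were at or near the limit of detection. CXCR1, CXCR2 and the decoy receptor ACKR1 had at most 4, 7 and 2 counts in any of the 42 libraries and were not tested. A count of this size does not show whether cells carry the receptor.

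Genes of the interleukin-1 and NF-kB pathway, which induces the members, rose in part. In OIS 13 of its 27 tested genes were higher, beside 15.5% of all genes, and 2 were lower, beside 20.2%, with a median log2 fold change of 0.89 beside -0.08 for all genes. IL1B, the secreted interleukin-1, had the largest change, from 0.888 to 8238 CPM on average (log2 fold change 13.06 ± 0.40, adjusted p = 2.85e-11), and IL1A, its cell-associated relative, went from 0.145 to 262 CPM (10.55 ± 1.02, adjusted p = 1.24e-06). IL1RN, the receptor antagonist, had 37 to 73 counts in OIS and 0 in the 3 DMSO libraries, at least 24.5-fold higher against a floor of 3 counts per library. IRAK2, a kinase of the receptor complex, rose by 2.65 ± 0.19 and NFKBIZ, a coactivator of NF-kB target genes, by 2.15 ± 0.32. Lower were the receptor IL1R1 (-2.04 ± 0.51, adjusted p = 0.00570) and the transcription factor CEBPD (-1.28 ± 0.34).

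With bleomycin 6 of 26 pathway genes were called higher and 1 lower (15.4% and 15.8% of all genes), with a median of 0.19 beside -0.01. Without replicate 4 the counts were 6 and 3 of 26 (16.2% and 14.8%), the lower ones being IL1R1, NFKB1 and CEBPD. IL1B went from 0.715 to 32.8 CPM on average (5.47 ± 1.30, adjusted p = 0.00261, and 4.28 without replicate 4, adjusted p = 1.04e-06). IL1A went from 0.179 to 4.51 CPM (4.58 ± 1.35, adjusted p = 0.0125, and 3.95 without replicate 4, adjusted p = 0.00132). IRAK2 rose by 2.19 ± 0.31 (2.19 without replicate 4) and NFKBIZ by 1.25 ± 0.43 (0.83), and CEBPD fell by 1.30 (1.43). The response of 3 of 27 genes differed between OIS and bleomycin, beside 20.3% of all genes, and all 3 were larger in OIS. Without replicate 4 the count was 6 of 27, beside 19.5%. They were IL1B (by 7.67, adjusted p = 0.000457), IL1A (by 6.04, adjusted p = 0.0369) and the NF-kB subunit RELB (by 1.30, adjusted p = 0.0314).

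Regulators of transcript decay were called in both directions. In OIS 2 of 8 were higher and 3 lower, beside 15.5% and 20.2% of all genes, with a median of -0.45. With bleomycin 1 of 8 was higher and 4 lower, beside 15.4% and 15.8% (median -0.40, and the same counts without replicate 4). ZC3H12A, which encodes the RNase Regnase-1 and is itself an NF-kB target, rose in OIS from 10.8 to 266 CPM on average (4.53 ± 0.33, adjusted p = 6.84e-08) and with bleomycin by 1.72 ± 0.62 (adjusted p = 0.0376), or by 1.34 without replicate 4 (adjusted p = 0.00610). ZFP36L2, an AU-rich element binding protein that promotes decay, fell by 2.06 in OIS (adjusted p = 0.000101) and by 1.26 with bleomycin (adjusted p = 5.53e-07). Its relative ZFP36 (tristetraprolin) fell by 1.09 and 0.59, whereas ZFP36L1 rose by 1.17 ± 0.19 in OIS. HNRNPD, which encodes the AU-rich element binding protein AUF1, fell by 0.81 and 0.65, and with bleomycin ARID5A, which stabilises IL6 transcripts, fell by 1.08. Without replicate 4 the bleomycin values were -1.26 for ZFP36L2, -0.59 for ZFP36, -0.57 for HNRNPD and -1.03 for ARID5A. The responses of ZC3H12A (by 2.89, adjusted p = 0.00844) and ZFP36L1 (by 1.43, adjusted p = 6.64e-06) were higher in OIS than with bleomycin, and that of ZFP36L2 was lower (by -0.76, adjusted p = 0.0467), but not without replicate 4 (-0.69, adjusted p = 0.0966).

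Other CXC chemokines were mixed. Of 11 such genes listed, 6 were tested in OIS. Of these, 4 were called higher and 2 lower, beside 15.5% and 20.2% of all genes, with a median log2 fold change of 4.58 (3.70 with PPBP at its bound). PPBP, PF4 and CXCL11 had at most 2 counts per library with DMSO, and CXCL12 at most 2 in OIS. They passed the filter on low counts through the group where they were high, so the share called and the median depend on it. PPBP, a platelet ELR chemokine encoded within the cluster, had 23 to 34 counts in OIS with the control shRNA and 0 in the DMSO libraries, at least 12.7-fold higher, and at least 9.09- and 8.64-fold with the COPB2 shRNAs. PF4, the platelet factor next to it, had 8 to 17 counts in OIS and 0 to 2 with DMSO (adjusted p = 0.00123). The interferon-induced CXCL10, which lacks the ELR motif and attracts T cells, went from 0.931 to 44.1 CPM (5.43 ± 0.86, adjusted p = 0.000152), and CXCL11 had 8 to 74 counts after 0 to 2. CXCL12, a homing chemokine of stromal cells, was at 933 to 1272 counts with DMSO and 0 to 2 counts in OIS (adjusted p = 6.87e-08).

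With bleomycin 5 of the 11 were tested, and 3 were higher and 2 lower, beside 15.4% and 15.8% of all genes (median 4.52). Without replicate 4 these were 2 and 2 of 4. CXCL14 and CXCL11 had at most 1 count per library with DMSO and passed the filter on low counts where they were high. CXCL14 had 43 to 71 counts with bleomycin and 0 to 1 with DMSO (adjusted p = 1.04e-08), and CXCL11 had 2 to 42 and 0 to 1. CXCL10 rose by 4.52 ± 1.08 (adjusted p = 0.00280), or by 2.85 without replicate 4. CXCL12 fell by 3.16 (adjusted p = 5.26e-08), from 104 to 11.9 CPM on average, and CXCL16 fell by 1.28. Without replicate 4 they fell by 3.24 and 1.12. PPBP had 0 to 1 counts with bleomycin and was not tested. The responses of CXCL12 and CXCL14 were lower in OIS than with bleomycin (adjusted p = 9.53e-09 and 0.00226), and those of the other 5 tested were not called as different. Without replicate 4 that of CXCL10 was also called, as higher in OIS (by 2.71, adjusted p = 0.0356).

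Neighbouring genes on the same chromosome arm, which belong to other families, were also higher in part. In OIS 3 of 4 tested were called higher and 0 lower, beside 15.5% and 20.2% of all genes, with a median of 4.23. The EGF receptor ligand AREG, which lies beyond CXCL2, went from 1.42 to 815 CPM on average (9.06 ± 0.37, adjusted p = 2.68e-10), and EREG, another such ligand, from 1.63 to 169 CPM (6.61 ± 0.82, adjusted p = 1.51e-05). MTHFD2L, a mitochondrial folate enzyme, rose by 1.85 ± 0.32 (adjusted p = 0.000306), and PARM1, a mucin-like protein, changed by -0.12 (adjusted p = 0.821). With bleomycin 3 of 5 were higher and 0 lower, beside 15.4% and 15.8% (median 2.51, and 3 of 5 without replicate 4). AREG rose by 4.17 ± 1.28 (adjusted p = 0.0159), or by 2.50 without replicate 4 (adjusted p = 0.000112), and EREG by 3.62 ± 0.67, or by 3.33. AFP, the fetal albumin relative on the other side of the members, rose by 2.51 ± 0.45 (adjusted p = 0.000208) from 2 to 6 counts to 17 to 21 counts. At these counts AFP passed the filter on low counts where it was high. The share of neighbours called with bleomycin and their median, which is the value of AFP, depend on it. MTHFD2L (0.69, adjusted p = 0.114) and PARM1 (0.07) were not called. The responses of AREG (by 4.94, adjusted p = 0.0182), EREG (3.03, adjusted p = 0.0203) and MTHFD2L (1.24, adjusted p = 0.0441) were larger in OIS, and that of AFP was smaller (by -3.69, adjusted p = 0.00490). Without replicate 4 these 4 differences were 6.69, 3.39, 1.49 and -3.62, and all 4 were called. The neighbours ALB, AFM, RASSF6, EPGN and BTC were too low to test in both models.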

How the data were processed

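Poly(A) RNA-seq of 42 libraries in 12 groups was analysed from the deposited table of raw read counts, which the authors made per gene symbol without normalization. The study's methods name Tophat 2.0.11, hg19, Ensembl 67 and HTSeq for directional single-end reads of 75 bases, whereas the submitters' processing notes name hg38, DRAGEN, STAR 2.7.8a and DESeq2 1.32.0. Which of these made the table is not given in the sources used here. Of 28266 symbols, 3476 had no count in any library. Groups came from the sample labels. The study describes its replicates of the COPB2 knockdown in both senescence models as independent experiments, 3 for each, whereas the bleomycin groups hold 4 libraries here. The labels do not say which cultures or batches the replicate numbers stand for.

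Counts were filtered with filterByExpr, scaled with TMM and tested with the quasi-likelihood test of edgeR 4.0.16 (robust, two-sided, R 4.3.3). The 18 ER:RAS libraries (14297 genes tested), the 24 IMR90 libraries (14783) and, across lines, all 42 (15299) each shared 1 fit. P-values were adjusted after Benjamini and Hochberg across the whole table of tested genes and called under 0.05. CPM used the TMM factors of all 42 libraries. CPM/kb divides by the canonical transcript length (GENCODE v44 lifted to GRCh37). Log2 CPM of single libraries used a prior count of 2, and ratios of counts added 0.5 to each. The scripts were tested on simulated counts. Floors cover counting error only, whereas standard errors and SDs also hold the spread between libraries. Reads carry no molecular identifiers.

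The members, gene lists and tests were chosen with earlier results of these data known. Named besides the members are at most 5 called genes of a list and response, by absolute log2 fold change, with IL1A, IL1B, the receptors and the neighbouring genes always, and the 5 genes with the highest mean Spearman correlation to the members. Genes in counts of 5 or fewer that fall outside that rule (RELB, IL1R1 and NFKB1 with bleomycin) were named after their values were seen. Alternatives were DESeq2 size factors, no filter, no robust estimation, the Wald test of DESeq2 1.42.0, the replicate number as a block, only the libraries compared, all 42 libraries in 1 fit, each library left out, and bleomycin replicate 4 left out with every shRNA. Combinations of the last with the block or with DESeq2, and the block within only the libraries compared, were chosen after seeing the data. Same-numbered libraries deviated together in every pair (correlation over 0.1) for the OIS response with either COPB2 shRNA and for the 4 knockdown comparisons in IMR90 cells, and not for the other comparisons.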

Additional observations from a re-analysis of the deposited data

Results flagged for a closer look

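Of 36 sets of 4 IMR90 libraries examined with Dixon's criterion (6 genes in 6 groups), 19 had a library further from the others than the 95% critical value. In 18 of them it was bleomycin replicate 4, the highest library for all 6 members with all 3 shRNAs. With the control shRNA these values were 882 CPM for CXCL1, 31.5 for CXCL2, 136 for CXCL3, 489 for CXCL5, 79.3 for CXCL6 and 1145 for CXCL8. With COPB2 shRNA 1 they were 3365, 180.1, 666, 3249, 198 and 8645 CPM in the same order, and with COPB2 shRNA 2 they were 2058, 100.1, 385, 1339, 144 and 4267 CPM. The other one was CXCL3 in replicate 1 of the IMR90 DMSO libraries with the control shRNA, at 0.837 CPM. No cause was tested.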

How the results depend on the processing

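Counts of members called in the bleomycin responses depended on the libraries and settings used. With the control shRNA, shRNA 1 and shRNA 2 they were 4, 6 and 6. Without bleomycin replicate 4 in any group they were 4, 5 and 6, and lower counts came from leaving out single libraries or from other settings. With the control shRNA 4 members were called, 2 without the filter on low counts, 2 with the replicate block in only the libraries compared, and 1 to 4 when 1 library was left out, the lowest without bleomycin replicate 4 of that shRNA. Leaving out DMSO replicate 2, 3 or 4 of the control shRNA called 2. With COPB2 shRNA 1 these were 6, 3 with that block and 1 to 6 with 1 library left out, and with COPB2 shRNA 2 they were 6 and 2 to 6. DESeq2 gave no adjusted p to the members in these responses, where its filter on outlying counts applies. Between models, OIS minus bleomycin called 2 members, 6 with the replicate block, 6 without bleomycin replicate 4 in any group (6 by DESeq2), 4 by DESeq2 with all libraries and 2 to 6 with 1 library left out. The difference in response called 0, 4 with the replicate block, 6 without replicate 4 in any group (6 by DESeq2) and 0 to 1 with 1 library left out. With the replicate block the OIS responses called 6, 6 and 6 members, the bleomycin responses 3, 5 and 6 and the knockdown comparisons 0. No senescence response of a member changed sign under any alternative run.

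No knockdown comparison called a member under any alternative that gave an adjusted p, and the cause of the changes of sign below was not tested. With the replicate block, COPB2 shRNA 2 in IMR90 DMSO gave log2 fold changes of -0.17 for CXCL2 and 0.14 for CXCL5. Without bleomycin replicate 4 in any group, COPB2 shRNA 1 in bleomycin gave -0.24 for CXCL1, -0.55 for CXCL3, -0.15 for CXCL5 and -0.050 for CXCL6, or -0.22, -0.50, -0.16 and -0.080 with the replicate block as well. The change of that effect from DMSO was -0.41 for CXCL3 and -0.0094 for CXCL5, or -0.41 and -0.032 with the block.

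When 1 library at a time was left out, the log2 fold changes of the following members changed sign. For COPB2 shRNA 1 in bleomycin they spanned -3.42 to 5.03 for CXCL1, -2.79 to 5.38 for CXCL2, -4.10 to 5.77 for CXCL3, -4.01 to 6.54 for CXCL5, -3.14 to 4.34 for CXCL6 and -2.29 to 5.22 for CXCL8. Its change from DMSO spanned -2.85 to 5.60 for CXCL1, -2.50 to 5.67 for CXCL2, -3.96 to 5.92 for CXCL3, -3.87 to 6.69 for CXCL5, -2.84 to 4.64 for CXCL6 and -2.00 to 5.51 for CXCL8. For COPB2 shRNA 2 in bleomycin the spans were -2.21 to 4.41 for CXCL1, -1.43 to 4.65 for CXCL2, -2.12 to 5.08 for CXCL3, -2.67 to 5.33 for CXCL5, -2.19 to 3.99 for CXCL6 and -0.98 to 4.34 for CXCL8, and for its change from DMSO -2.13 to 4.49 for CXCL1, -1.48 to 4.60 for CXCL2, -2.58 to 4.61 for CXCL3, -2.67 to 5.33 for CXCL5, -1.75 to 4.43 for CXCL6 and -1.26 to 4.06 for CXCL8. In these 4 comparisons the sign changed without bleomycin replicate 4 of the COPB2 shRNA concerned. In IMR90 DMSO they were -0.39 to 0.75 for CXCL3 with shRNA 1, and with shRNA 2 -0.42 to 0.10 for CXCL1, -0.15 to 0.26 for CXCL2, -0.11 to 0.11 for CXCL5 and -0.073 to 0.56 for CXCL8. In ER:RAS DMSO they were -0.31 to 0.028 for CXCL2, -0.032 to 0.36 for CXCL3 and -1.54 to 0.21 for CXCL8 with shRNA 1, and -0.28 to 0.34 for CXCL5, -0.062 to 0.32 for CXCL6 and -0.47 to 0.80 for CXCL8 with shRNA 2. In OIS they were -0.11 to 0.32 for CXCL2 and -0.62 to 0.016 for CXCL8 with shRNA 2. The change of effect from DMSO to OIS spanned -0.44 to 0.20 for CXCL1, -0.28 to 0.069 for CXCL2, -0.27 to 0.10 for CXCL5, -0.45 to 0.19 for CXCL6 and -0.51 to 1.23 for CXCL8 with shRNA 1, and -0.48 to 0.027 for CXCL2, -0.56 to 0.051 for CXCL5 and -1.04 to 0.23 for CXCL8 with shRNA 2.

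Of 1252 values of the knockdown comparisons under alternatives, 82 had the other sign. Of 556 values of the senescence responses, 33 were no longer called and 3 became so, and of 288 between the models 26 became so.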
